A study of Mus musculus with 12 samples.

Results

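The genes described here were 7 genes of basophils and mast cells, measured in the femoral bone marrow of mice with cyclophosphamide-induced leucopenia. They were Hdc, Mcpt8, Prss34, Cpa3, Fcer1a, Ms4a2 and Cd200r3, and they were taken by gene name from a deposited table of 34745 genes, in which each of the 7 had 1 entry. RNA of total marrow cells was sequenced from 12 male mice of the outbred ICR strain, which formed 4 groups of 3. Normal mice were given saline only. The model group received saline and cyclophosphamide, an alkylating drug that damages dividing cells, at 80 mg/kg on each of days 5, 6 and 7. The QJSB group received the same cyclophosphamide together with Qi-Jing-Sheng-Bai granule, a herbal formula given at 3 g/kg per day, and the leucogen group received it with leucogen, a drug used against low white blood cell counts, at 20 mg/kg per day, both for 1 week. The age of the mice is not given in the sources used here, and each library came from a separate mouse. The table heads its columns Blank, Model, Stilbene and Positive, which were read as normal, model, QJSB and leucogen.

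Basophils and mast cells are granulocytes that carry the high-affinity receptor for immunoglobulin E (IgE) and store histamine and proteases in their granules. Basophils mature in the bone marrow and then enter the blood, whereas mast cells leave the marrow as progenitors and mature in tissues. Histidine decarboxylase, encoded by Hdc, is the enzyme that makes histamine. It is also expressed by immature and maturing cells of the neutrophil lineage, so Hdc marks more than basophils in marrow. Mcpt8 and Prss34 encode serine proteases of basophil granules, and Cpa3 encodes a carboxypeptidase of mast cell and basophil granules. Fcer1a and Ms4a2 encode the alpha and beta chains of the IgE receptor. Cd200r3 encodes a receptor of the CD200 receptor family on basophils and mast cells.

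The promoters of the 7 genes are shown first, because 5 of them share a short motif. The letters searched were AGATAA, one form of the site bound by GATA factors, on either strand (TTATCT on the other), in the 250 bases before the start of the gene in RefSeq (assembly GRCm38.p6). The motif was found in 5 of 7 members and in 9.99% of 32851 promoter windows of that length in the same table. The shorter core GATAA, which lies inside it, was found in 22.6% of the windows. The 5 windows are printed 5′ to 3′ along the gene, with the motif in capitals. They lie at chr17:25298144-25298393 on the + strand (Prss34), chr3:20242182-20242431 on the - strand (Cpa3), chr1:173227230-173227479 on the - strand (Fcer1a), chr19:11623720-11623969 on the - strand (Ms4a2) and chr16:44943428-44943677 on the + strand (Cd200r3).
Prss34: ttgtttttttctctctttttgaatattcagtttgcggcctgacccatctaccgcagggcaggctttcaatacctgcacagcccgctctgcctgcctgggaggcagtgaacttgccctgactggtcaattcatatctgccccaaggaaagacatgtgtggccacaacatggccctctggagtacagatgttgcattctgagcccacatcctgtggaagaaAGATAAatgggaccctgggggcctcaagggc
Cpa3: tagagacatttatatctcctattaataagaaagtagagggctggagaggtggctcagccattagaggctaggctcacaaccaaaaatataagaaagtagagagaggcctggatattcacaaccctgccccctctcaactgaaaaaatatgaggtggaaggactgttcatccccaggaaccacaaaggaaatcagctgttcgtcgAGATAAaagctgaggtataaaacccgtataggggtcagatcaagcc
Fcer1a: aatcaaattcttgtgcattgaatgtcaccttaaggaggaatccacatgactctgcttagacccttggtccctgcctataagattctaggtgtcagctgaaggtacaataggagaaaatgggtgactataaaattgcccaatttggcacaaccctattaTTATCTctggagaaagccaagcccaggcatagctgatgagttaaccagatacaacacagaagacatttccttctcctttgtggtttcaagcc
Ms4a2: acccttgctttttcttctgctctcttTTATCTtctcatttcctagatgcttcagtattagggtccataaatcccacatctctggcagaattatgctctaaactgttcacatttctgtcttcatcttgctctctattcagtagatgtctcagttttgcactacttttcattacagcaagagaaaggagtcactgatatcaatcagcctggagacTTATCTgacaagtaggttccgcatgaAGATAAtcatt
Cd200r3: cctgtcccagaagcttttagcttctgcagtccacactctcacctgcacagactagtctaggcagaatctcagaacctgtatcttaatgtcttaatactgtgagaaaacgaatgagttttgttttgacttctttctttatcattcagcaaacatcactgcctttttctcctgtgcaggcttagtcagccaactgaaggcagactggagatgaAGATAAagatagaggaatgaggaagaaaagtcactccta
The motif ended 26 bases before the start in Prss34, 41 bases before it in Cpa3, 34 bases before it in Cd200r3 and 87 bases before it in Fcer1a. Ms4a2 held 3 copies. The window of Hdc on chromosome 2 and that of Mcpt8 on chromosome 14 held none, and they are not printed because their RefSeq start lies inside the deposited gene. A match is a description of the letters only, and binding was not measured.

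The libraries held between 11172547 and 18545198 counts. Genes of blood-forming tissue were read in every library, with Ptprc, the leucocyte antigen CD45, at 725 CPM (read counts scaled to the library total) or more and Spi1, a factor of myeloid cells, at 63.3 CPM or more. Late neutrophil genes set a library apart in each of 2 groups. Their summed level was 7345 CPM in QJSB 1, against 37830 and 28130 CPM in the other QJSB mice, and 4817 CPM in model 1, against 19960 and 11920 CPM in the other model mice. Model 1 also had the highest erythroid and B cell levels of its group. Results that change by over 1.5 times or lose or gain a call without either library are given with and without it. Levels are CPM after TMM scaling, which corrects for library size and composition. A gene was called when edgeR's quasi-likelihood test gave a Benjamini-Hochberg adjusted p under 0.05 and a change of at least 1.5-fold. The cutoff of the study used the same fold with an unadjusted p under 0.05. The study set it on results of DESeq2, and here it was applied to those of edgeR. All comparisons against model share the model libraries, and those against normal share the normal ones.

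After cyclophosphamide, 6 of the 7 genes were lower in the marrow. In model against normal, Cd200r3 was 21.5-fold lower, Prss34 11.6-fold lower, Fcer1a 3.45-fold, Cpa3 2.56-fold, Hdc 2.38-fold and Mcpt8 2.33-fold. Ms4a2 was not called. Of the 14752 genes tested, 19.0% were called lower and 35.1% in either direction. Cd200r3 passed the filter on low counts only through the normal group, so its call was bound to show a difference. Fcer1a, with 7 counts in model 3, also passed only with normal libraries included, so its call leans the same way. Hdc, Mcpt8, Prss34 and Cpa3, which were called, and Ms4a2, which was not, remain to be read against that background. Of the 7 members, 6 had no overlap between model and normal mice, beside 55.5% of all genes tested. They are the same 6 that were called, so this is not separate support for the calls. The median of all 7 members was -1.36 on the log2 scale, beside 0.02 over all genes. Both values include Cd200r3 and Fcer1a. In bulk marrow, fewer cells of a type and less RNA per cell cannot be told apart. The plot of CPM by mouse shows these levels for all 4 groups.

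**Figure D1:**
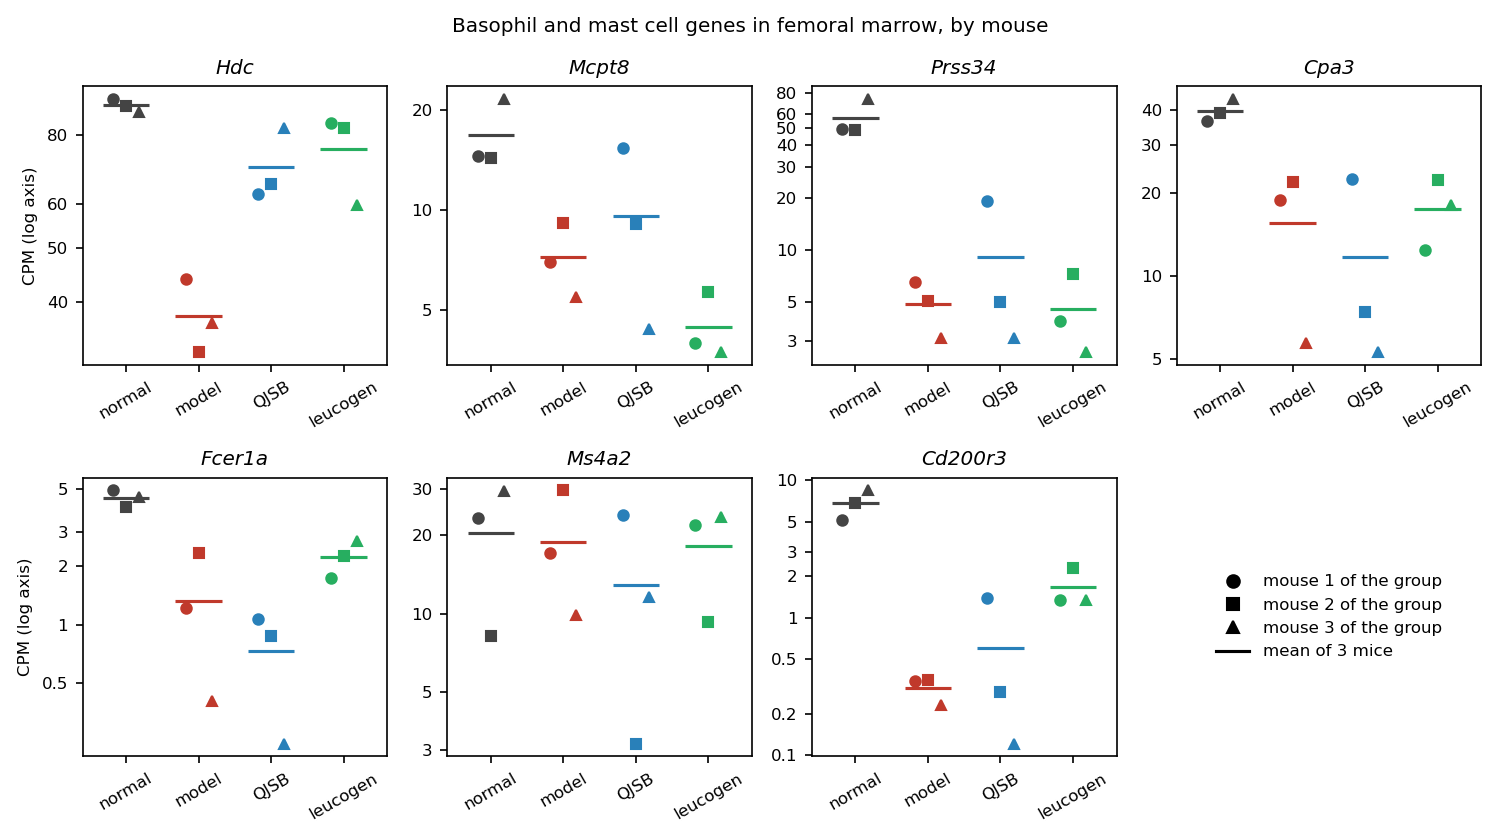
CPM of the 7 genes in each mouse (y axis, log scale, with a range of its own for each gene) by group (x axis), with 3 mice per group drawn as circle, square and triangle and their mean as a line. In 6 genes every normal mouse lies above every model mouse, Hdc is higher again in both treated groups, and Ms4a2 overlaps in all groups.

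Among the granule proteases, Prss34 showed the largest fall. It was at 49.2, 48.9 and 74.0 CPM in the normal mice and at 6.53, 5.11 and 3.12 CPM in the model mice. The highest model mouse was thus far below the lowest normal mouse, and edgeR gave a log2 fold change of -3.54 (SE 0.30, adjusted p = 7.0e-05). Mcpt8 was at 14.5, 14.3 and 21.6 CPM in normal and at 6.99, 9.15 and 5.48 CPM in model marrow. The groups did not overlap, and the log2 fold change was -1.22 (SE 0.25, adjusted p = 0.00564). Cpa3 was at 36.5, 39.0 and 44.0 CPM in normal and at 18.9, 22.0 and 5.72 CPM in model marrow. Its normal mice lay close together and its model mice were spread, with model 3 lowest, and the log2 fold change was -1.36 (SE 0.44, adjusted p = 0.0432). This call was lost without model 1 (adjusted p = 0.068) and without any one of the normal mice (0.0882, 0.0993 and 0.105 without normal 1, 2 and 3).

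Of the IgE receptor chains, Fcer1a was called lower and Ms4a2 was not, and the difference between them was not tested. Fcer1a, the chain that binds IgE, was at 4.93, 4.05 and 4.55 CPM in normal and at 1.21, 2.34 and 0.40 CPM in model marrow. All model mice were below all normal mice, with a log2 fold change of -1.79 (SE 0.51, adjusted p = 0.0223). The call was lost without any one of the normal mice (adjusted p = 0.0666, 0.051 and 0.0585 without normal 1, 2 and 3). Ms4a2, the signal-amplifying beta chain, was at 23.3, 8.24 and 29.5 CPM in normal and at 17.1, 29.7 and 9.87 CPM in model marrow. The groups overlapped fully, and its log2 fold change of -0.10 had a 95% interval from -1.41 to 1.21 (adjusted p = 0.898). Fcer1g encodes the gamma chain, which other Fc receptors of myeloid cells also use. It averaged 63.0 ± 7.60 (SD, n = 3) CPM in normal and 62.3 ± 16.0 (SD, n = 3) CPM in model mice.

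Cd200r3 came close to the limit of detection after cyclophosphamide. It was at 5.15, 6.86 and 8.48 CPM in normal and at 0.35, 0.35 and 0.23 CPM in model marrow, where it had 6, 5 and 4 counts. The log2 fold change was -4.43 (SE 0.36, adjusted p = 5.7e-05). Cd200, the ligand of the inhibitory CD200 receptor and a gene also made by B cells, fell by 2.94 on the log2 scale (adjusted p = 0.000107). Of the 4 genes listed for the CD200 family, 2 could be tested and Cd200 was the 1 called, beside 35.1% of all genes. In leucogen against model 1 of the 2 tested was called higher, beside 11.6% of all genes. Cd200r1, the other tested gene, was at 36.3, 43.8 and 43.5 CPM in leucogen and between 12.5 and 24.3 CPM in all other mice. Cd200r2 and Cd200r4, the nearest relatives of Cd200r3, had at most 4 and 8 counts in any library, and reads that several such relatives share may be divided among them.

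Hdc was the least variable of the 7 genes in normal marrow. It was at 92.8, 90.2 and 87.7 CPM in the normal mice and at 44.1, 32.6 and 36.8 CPM in the model mice. The groups stood well apart, and the log2 fold change was -1.25 (SE 0.14, adjusted p = 0.000269). The coefficient of variation of the normal mice was 2.79% for Hdc and ran from 9.65% for Cpa3 to 53.8% for Ms4a2 in the other members.

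Per length of transcript, the order of the genes changed with cyclophosphamide. Levels between genes are given here in FPKM, which scales fragments by transcript length and library total. In normal marrow Prss34 was highest at 46.3 ± 11.96 (SD, n = 3) FPKM, followed by Cpa3 at 25.8 ± 2.69, Mcpt8 at 19.3 ± 4.91 and Hdc at 11.8 ± 0.24. Ms4a2 at 4.45 ± 2.41, Fcer1a at 2.86 ± 0.27 and Cd200r3 at 0.80 ± 0.20 were lower. The ranges of Cpa3 and Mcpt8, and of Ms4a2 and Fcer1a, overlapped between mice. In model marrow Prss34 had dropped to 4.37 ± 1.71 FPKM, below Cpa3 at 11.1 ± 6.30, Mcpt8 at 9.04 ± 2.40 and Hdc at 5.41 ± 1.06. Prss34 and Hdc then differed by less than the spread between mice.

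**Figure D2:**
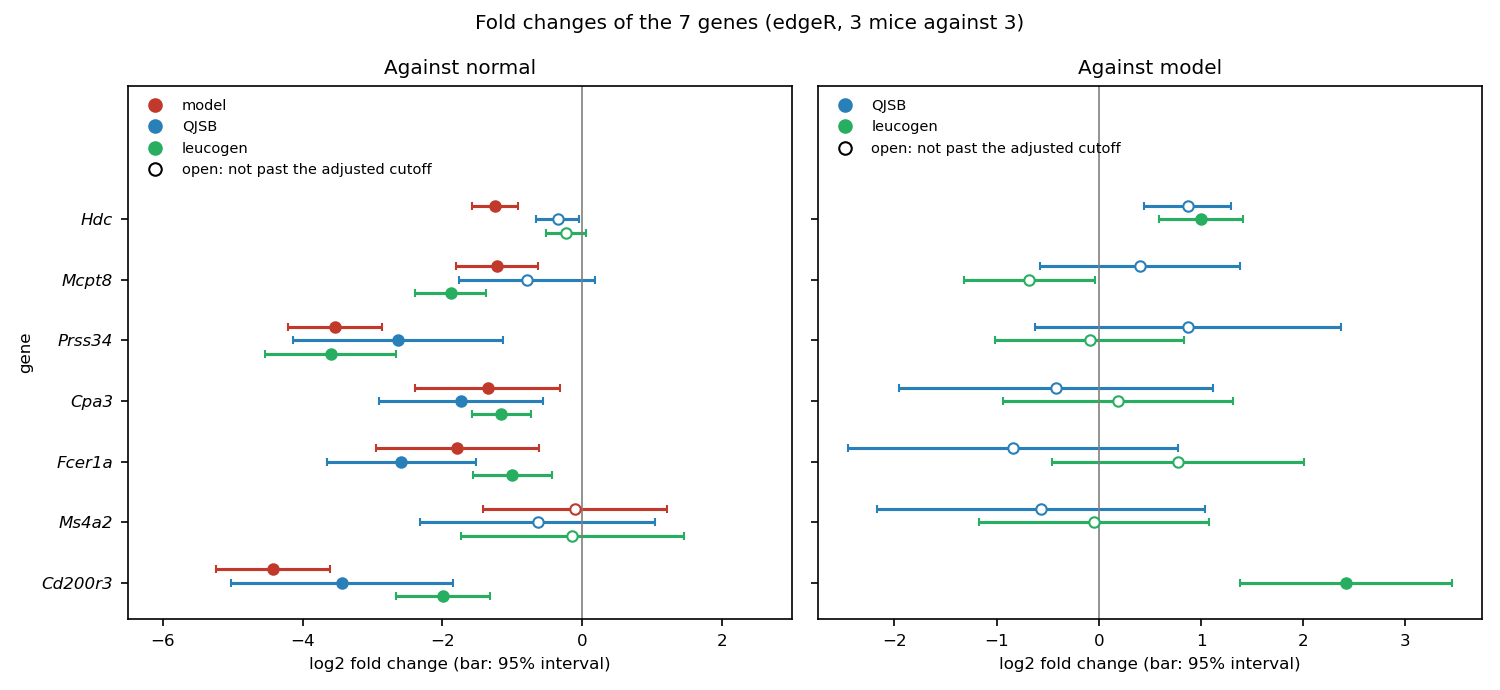
Log2 fold change (x axis) of each gene (y axis) against normal on the left and against model on the right, each from 3 mice against 3, with bars for the 95% interval. Filled points passed the adjusted cutoff, and against model these were Hdc and Cd200r3 in leucogen, both to the right of 0. Cd200r3 in QJSB against model was not tested.

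QJSB against model asks which genes moved with the herbal formula under the same cyclophosphamide. Hdc was the member that passed the cutoff of the study, 1.83-fold higher in QJSB, and none of the 6 members tested passed the adjusted cutoff. Hdc was at 62.5, 65.1 and 82.1 CPM in the QJSB mice, each above all model mice. The log2 fold change was 0.87 (SE 0.19, 95% interval 0.44 to 1.30) with an unadjusted p = 0.00131 in edgeR's test and an adjusted p = 0.767. The background was 0% of 14486 genes called after adjustment and 3.08% past the cutoff of the study. With the same edgeR p-values and no fold cutoff, Hdc was still the 1 member at an unadjusted p under 0.05, beside 723 of the 14486 genes. DESeq2 called 0 members after adjustment. The direction of Hdc was the same with any one of the 6 mice left out, with log2 fold changes from 0.74 to 1.00.

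In the other members the QJSB mice disagreed among themselves. Prss34 was at 19.1, 5.04 and 3.11 CPM in QJSB 1, 2 and 3. Mcpt8 was at 15.4, 9.09 and 4.39 CPM, and Cpa3 at 22.5, 7.41 and 5.30 CPM. In each of them QJSB 1 was highest and QJSB 3 lowest, and QJSB 1 is also the library with the low late neutrophil level. Cd200r3 followed the same order with 26, 5 and 2 counts and failed the filter on low counts. The log2 fold changes against model were 0.87 for Prss34 (95% interval -0.63 to 2.37), 0.40 for Mcpt8 (-0.58 to 1.38) and -0.42 for Cpa3 (-1.95 to 1.12), with adjusted p-values of 0.785, 0.839 and 0.895. Without QJSB 1 those of Prss34 and Mcpt8 turned to -0.29 and -0.11, and that of Cpa3 was -1.30 (adjusted p = 0.33). Without model 1 that of Prss34 was 1.13. The part of the library's composition in these values was not tested.

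The IgE receptor chains stayed low or variable under QJSB. Fcer1a was at 1.07, 0.87 and 0.24 CPM in the QJSB mice, with a log2 fold change of -0.84 against model (95% interval -2.46 to 0.77, adjusted p = 0.801). Ms4a2 was at 23.8, 3.18 and 11.6 CPM, and its 55 counts in QJSB 2 were the lowest of all libraries for that gene. Its log2 fold change was -0.57 (95% interval -2.18 to 1.04, adjusted p = 0.855), and -1.37 without QJSB 1 (adjusted p = 0.393). These wide intervals do not show that the groups were alike.

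In leucogen against model 2 of the 7 members were called, Hdc and Cd200r3, both higher. Hdc was at 84.0, 82.2 and 59.8 CPM in the leucogen mice, all above the model mice. The log2 fold change was 1.00 (SE 0.18, adjusted p = 0.00655), a rise of 2.00-fold. Cd200r3 was at 1.35, 2.32 and 1.34 CPM, from 17, 32 and 14 counts. It was 5.34-fold higher than in model (log2 fold change 2.42, SE 0.46, adjusted p = 0.00767), and it stayed below every normal mouse. It passed the filter on low counts only through the leucogen group, so this call too was bound to show a difference, and it was lost with limma on FPKM (adjusted p = 0.0741). Of the 14184 genes tested, 11.6% were called higher and 23.1% in either direction, and of the other 6 members Hdc was the 1 called. Without model 1 the log2 fold change of Hdc was 1.14 (adjusted p = 0.00952).

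No granule protease was called in leucogen against model. Mcpt8 was at 3.97, 5.66 and 3.74 CPM in the leucogen mice, with a log2 fold change of -0.68 against model (SE 0.28) that had an unadjusted p = 0.0394 in edgeR's test and an adjusted p = 0.102. It passed the cutoff of the study, although leucogen 2 lay above model 3, and it was called lower with limma on FPKM (-0.84, adjusted p = 0.0358). Prss34 was at 3.89, 7.25 and 2.59 CPM, and its log2 fold change of -0.09 had a 95% interval from -1.01 to 0.84, and was 0.19 without model 1. Cpa3 was at 12.4, 22.3 and 18.1 CPM and overlapped with the model mice (log2 fold change 0.19, 95% interval -0.94 to 1.31). Fcer1a was at 1.75, 2.25 and 2.69 CPM, a log2 fold change of 0.77 (95% interval -0.46 to 2.01, adjusted p = 0.316). Ms4a2 was at 21.8, 9.28 and 23.5 CPM and again overlapped with model.

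The ratio of Hdc to Mcpt8 set these groups side by side within each library. Normal mice had 6.40, 6.29 and 4.06 CPM of Hdc per CPM of Mcpt8, and model mice 6.31, 3.56 and 6.71. Leucogen mice had 21.1, 14.5 and 16.0, all above the other 2 groups. QJSB mice had 4.07, 7.16 and 18.7, and thus spanned both ranges. This pattern held for Mcpt8 and not for the other proteases. Per CPM of Prss34, Hdc was already higher in model, at 6.75, 6.38 and 11.8, than in normal mice, at 1.89, 1.84 and 1.19, and leucogen mice, at 21.6, 11.3 and 23.1, overlapped with model. Per CPM of Cpa3, leucogen mice, at 6.78, 3.69 and 3.31, also overlapped with model mice, at 2.33, 1.48 and 6.43. The ratios are a description and were not tested.

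Against normal marrow, most members stayed low in both treated groups, and Hdc was the nearest to normal of those that had fallen. In QJSB against normal, 4 of 7 were called lower, beside 19.9% of all genes, and in leucogen against normal 5 of 7, beside 19.8%. Both counts include Cd200r3, which is highest in normal marrow. In QJSB against normal, Cd200r3 and Fcer1a passed the filter on low counts only with normal libraries included. Their calls there lean toward a difference, and the 4 called include them. Prss34 remained 6.21-fold lower in QJSB and 12.1-fold lower in leucogen, with adjusted p-values of 0.0139 and 0.000434 in edgeR's test. In QJSB its log2 fold change went from -2.63 to -3.80 without QJSB 1, and the call was lost with no filter on low counts (adjusted p = 0.0578). Cd200r3 was 10.8-fold and 3.97-fold lower, and in QJSB its log2 fold change went from -3.44 to -4.98 without QJSB 1. Fcer1a was 6.01-fold and 2.00-fold lower. Cpa3 was 3.34-fold and 2.23-fold lower, and its call in QJSB was lost without any one of the normal mice or without QJSB 2 (adjusted p from 0.055 to 0.0801) and with no filter (0.0674). Without QJSB 1 its log2 fold change there went from -1.74 to -2.64. In leucogen the calls of Cpa3 and Fcer1a were lost with all 12 libraries in 1 fit (adjusted p = 0.116 and 0.134). Mcpt8 was 3.69-fold lower in leucogen (adjusted p = 8.1e-05). In QJSB its log2 fold change was -0.79 (adjusted p = 0.16), and without QJSB 1 it was called, at -1.31 (adjusted p = 0.0161).

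Hdc in both treated groups fell between model and normal. All QJSB and leucogen mice were below the lowest normal mouse, and the log2 fold changes were -0.36 in QJSB (95% interval -0.66 to -0.05, adjusted p = 0.0592) and -0.24 in leucogen (-0.52 to 0.05, adjusted p = 0.149). Neither was called. Between leucogen and QJSB the log2 fold change of Hdc was 0.13 (95% interval -0.28 to 0.53).

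The treatments were also compared directly. Fcer1a was the 1 member called in leucogen against QJSB, 3.05-fold higher in leucogen (log2 fold change 1.61, SE 0.50, adjusted p = 0.0429), beside 11.7% of the 14266 genes tested that were called higher and 24.6% in either direction. The leucogen mice did not overlap with the QJSB mice, whose counts were 20, 15 and 4. With so few counts in QJSB 3, Fcer1a passed the filter on low counts only with leucogen libraries included. Its call thus leans toward a difference. The call was lost under the replicate block (adjusted p = 0.0577) and when QJSB 2, QJSB 3 or any leucogen mouse was left out (adjusted p from 0.0757 to 0.154). Without QJSB 1, Cpa3 and Cd200r3 were called higher in leucogen as well, at log2 fold changes of 1.49 and 2.99 (adjusted p = 0.0037 and 0.00554). Cd200r3 then passed the filter only through the leucogen group. Mcpt8 had a log2 fold change of -1.08 (adjusted p = 0.0887), and it was called without QJSB 3 (-1.42, adjusted p = 0.0213). Without QJSB 1 it was -0.56 (adjusted p = 0.23).

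**Figure D3:**
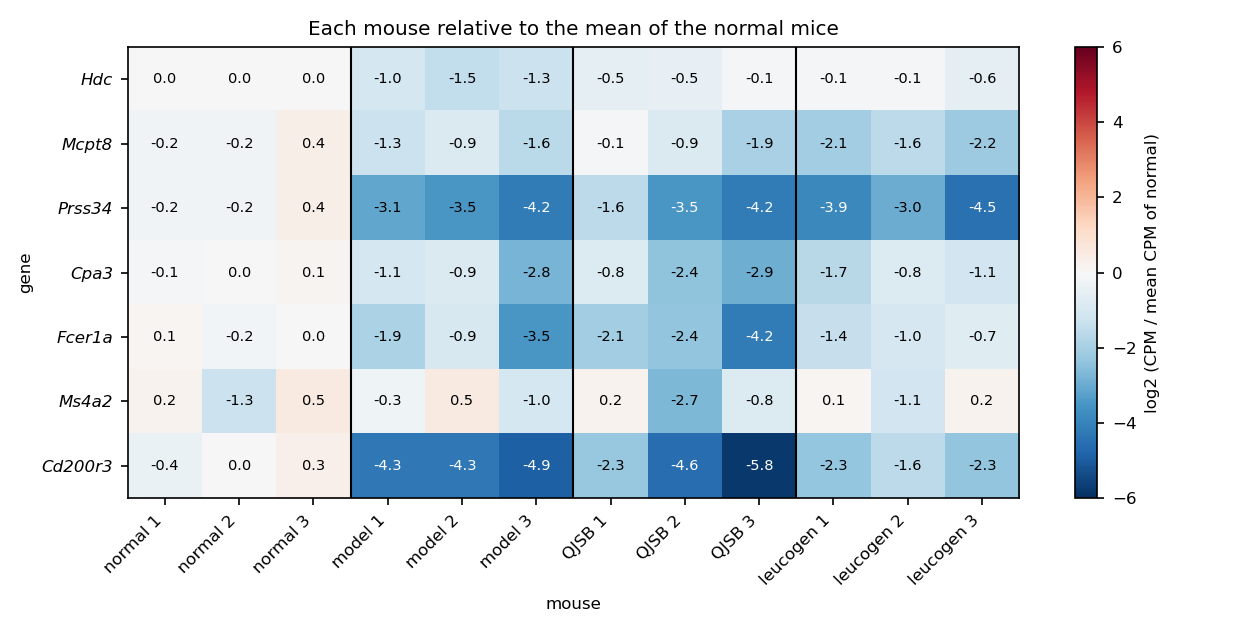
Log2 of each mouse's CPM over the mean CPM of the normal mice, for the 7 genes (rows) in the 12 mice (columns), with blue below and red above that mean. QJSB 1 is nearer to normal than QJSB 2 and 3 in Mcpt8, Prss34, Cpa3 and Cd200r3, while Hdc is pale in all QJSB and leucogen mice.

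Markers of mature mast cells were at or near 0. A further 17 genes were listed for mast cells, not all of them specific to these cells. Of the 17, 6 had 0 counts throughout, namely Mcpt1, Mcpt4, Mcpt9, Tpsab1, Mrgprb2 and Prss29. A count of 0 allows up to 3 counts, between 0.161 and 0.288 CPM depending on the library. Another 6 had at most 15 counts in any library. Among them the chymase gene Cma1 was at 0.65, 0.41 and 0.55 CPM in normal marrow and the tryptase gene Tpsb2 at 0.29, 0.48 and 0.62 CPM, and Tpsb2 had no count in the model or leucogen mice. The other 5 were tested, and Kit, Mitf and Srgn were called higher in model against normal. Of all genes there, 35.1% were called in either direction. Kit, the stem cell factor receptor, is also made by blood progenitors, and its log2 fold change was 0.62 (adjusted p = 0.0145).

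Other genes of basophils split in both directions in model against normal. In that comparison 35.1% of all genes tested were called in either direction and 19.0% lower. Of 17 basophil genes listed, 14 were tested, with 5 called higher and 2 lower and a median of 0.28 on the log2 scale. Those higher were Ifitm1 (log2 fold change 2.68), the cytokine receptor chains Csf2rb2 (2.20), Csf2rb (2.18) and Il3ra (1.75), and the myeloid factor Cebpa (1.57), most of which other myeloid progenitors also make. Those lower were Il1rl1, the receptor for interleukin-33, and Gata1, a factor also of erythroid cells. Il1rl1 was at 55.5, 61.8 and 48.4 CPM in normal and at 6.76, 11.99 and 2.89 CPM in model mice, a log2 fold change of -2.94 (adjusted p = 0.00224), and Gata1 fell by 3.98 (adjusted p = 0.000171). Il1rl1 stayed low in QJSB, at 14.2, 5.04 and 4.39 CPM, and in leucogen, at 7.55, 8.78 and 10.6 CPM. Gata2, a factor needed by basophils and mast cells, had a log2 fold change of -0.88 (adjusted p = 0.0738), and of -1.46 in leucogen against normal, where it was called (adjusted p = 0.00499). Interleukin-4 is a product of activated basophils, and Il4 had at most 20 counts in any library. In leucogen against model Runx1 was called higher (log2 fold change 0.61) and Ifitm1 (-1.47), Cebpa (-0.79) and Stat5a (-0.73) lower, the first 2 of these being among the genes called higher in model against normal. In QJSB against model none of the 14 basophil, 5 mast cell, 4 histamine and 2 CD200 family genes tested was called by edgeR. The same held for all 14486 genes tested there, so this outcome is not particular to these lists.

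The genes of IgE receptor signalling were mixed too. All 15 reported here were tested in model against normal, with 2 called higher, 2 lower and a median of -0.01. Of all genes in that comparison, 35.1% were called in either direction. Syk, the kinase that the receptor chains recruit, fell by 1.11 on the log2 scale (adjusted p = 0.000205), and the kinase gene Fyn was also lower (log2 fold change -0.76). The adaptor Gab2 rose by 1.28 and Vav1 by 0.70. None of the 15 was called by edgeR in QJSB or in leucogen against model, where 0% and 23.1% of all genes were called.

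In the histamine pathway the synthesis gene and a receptor gene moved while the storage gene did not pass the test. Of 8 genes listed beside Hdc, 4 were tested. Hrh2, which encodes the histamine H2 receptor, was at 10.1, 10.1 and 10.5 CPM in normal and at 3.98, 5.82 and 5.25 CPM in model marrow. Normal mice were close together and all model mice below them, with a log2 fold change of -1.02 (SE 0.21, adjusted p = 0.00499). In leucogen it was at 25.8, 18.4 and 21.6 CPM, above every mouse of the other groups (log2 fold change 2.14 against model, adjusted p = 0.00177). In QJSB it was at 5.64, 8.86 and 6.89 CPM and overlapped with model (log2 fold change 0.49, adjusted p = 0.767). The difference between leucogen and QJSB was 1.64 (adjusted p = 0.00328).

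Hnmt, which encodes the enzyme that methylates and inactivates histamine, was at 55.6, 51.0 and 75.2 CPM in leucogen and between 13.7 and 33.1 CPM in all other mice. Its log2 fold change was 1.21 against model (adjusted p = 0.0242) and 1.47 against QJSB (adjusted p = 0.00392). Slc18a2, the vesicular transporter that loads histamine into granules, averaged 9.03 ± 2.43 (SD, n = 3) CPM in normal, 7.76 ± 3.34 in model, 7.40 ± 3.58 in QJSB and 7.04 ± 1.37 in leucogen mice and was called in no comparison. Slc22a3, a transporter that takes up histamine, was called in leucogen against normal (log2 fold change -1.54, adjusted p = 0.000162). The receptor genes Hrh1, Hrh3 and Hrh4 and the diamine oxidase gene Aoc1 had at most 3, 1, 10 and 11 counts in any library. The plot of histamine genes by mouse sets Hdc beside the tested genes for storage, breakdown and reception.

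**Figure D4:**
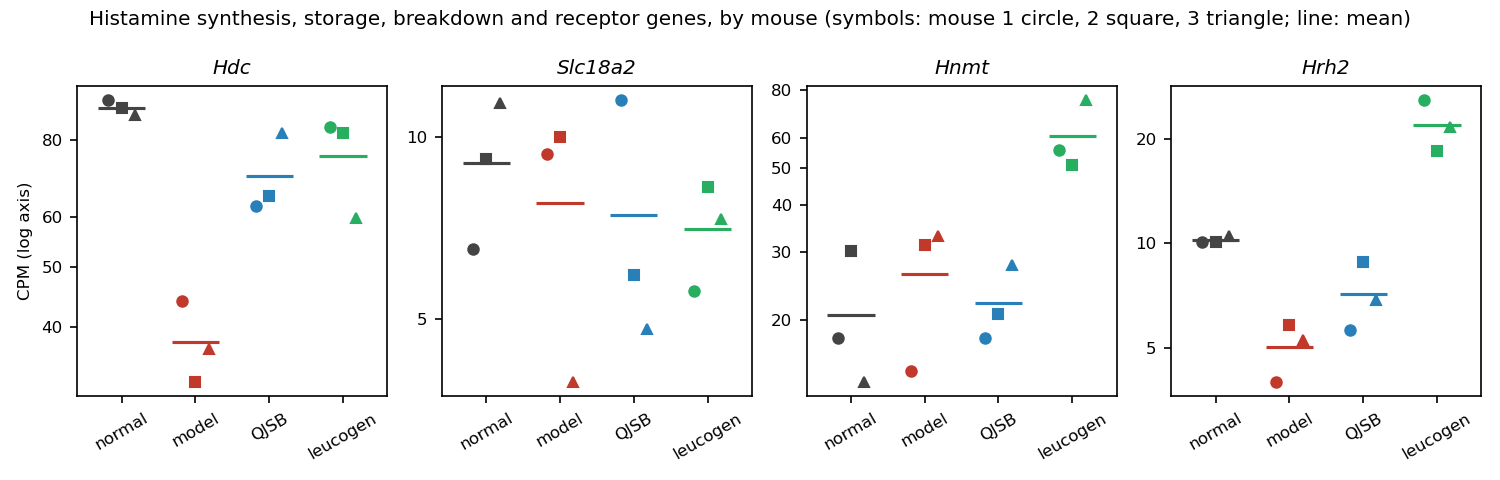
CPM (y axis, log scale, with a range of its own for each gene) of Hdc, Slc18a2, Hnmt and Hrh2 in each mouse by group (x axis), with the mean as a line. Hdc and Hrh2 are both lower in model than in normal mice, and Hnmt and Hrh2 are highest in the leucogen mice, where Hrh2 reaches 25.8 CPM.

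Across the 12 libraries the level of Hdc was most like that of Pitpnc1 (Pearson's r = 0.905), Kdm5b (0.899), Tob1 (0.893), Sncaip (0.876) and Satb1 (0.872), of 12089 genes compared on log2 CPM. Tob1, an antiproliferative gene, was at 31.3 ± 4.24 (SD, n = 3) CPM in normal, 8.34 ± 0.94 in model, 17.6 ± 6.21 in QJSB and 25.7 ± 3.07 in leucogen mice, the same order of groups as Hdc. The mean of the other 6 members was most like Gpr34 (r = 0.976), Prelid2 (0.957), Il1rl1 (0.950), Ahctf1 (0.946) and Car1 (0.944). Gpr34 was at 4.50 ± 0.73 CPM in normal and between 0.12 and 1.02 CPM in all other mice. The libraries fall into groups of which normal stands apart for most of these genes, and the values describe likeness only. With Hdc itself, the other members correlated at r from -0.10 for Ms4a2 to 0.65 for Cd200r3.

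Markers of other cells moved in the same libraries, and their part in the values of the 7 genes was not tested. In model against normal, all 5 promyelocyte genes were called higher (median log2 fold change 3.22) and 6 of 11 stem and progenitor genes, while 9 of 9 erythroid, 7 of 8 B cell and 8 of 9 eosinophil genes were called lower. Of 12 late neutrophil genes 5 were called lower, of 8 macrophage genes 3 lower and 1 higher, and of 8 megakaryocyte genes none in that edgeR test. These counts stand beside 35.1% of all genes called in either direction and 19.0% called lower. The summed level of the late neutrophil genes ran from 19610 to 23190 CPM in normal, from 4817 to 19960 in model, from 7345 to 37830 in QJSB and from 49130 to 58820 in leucogen mice. In leucogen against model, 7 of the 12 were called higher, beside 11.6% of all genes tested. The eosinophil genes summed to between 1594 and 1967 CPM in normal mice and to at most 292 CPM, in QJSB 1, after cyclophosphamide.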

How the data were processed

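Total RNA of femoral marrow cells from 12 ICR mice was depleted of ribosomal RNA and made into strand-specific libraries. The authors mapped the reads with Hisat2 to mm10 (GRCm38), and the program that counted reads per gene is not given in the sources used here. The deposited table holds counts as whole numbers per gene, without normalization, and FPKM, which the authors derived from mapped fragments, transcript length and total fragments. Of its sample columns 0 were left unused.

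The heading Blank was read as the normal group and Positive as the reference drug leucogen, which left Stilbene for QJSB. Mean normalized counts over both groups of a comparison were set beside the means listed with the study. Under that reading 298, 300 and 300 of 300 genes per comparison matched within 1%, and at most 10 under any other pair of groups. Each mean pools both groups, so only the comparisons together tell the groups apart. The assignment thus rests in part on values.

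Counts were tested with edgeR 4.0.16 in R 4.3.3 (TMM, filterByExpr, robust glmQLFit and glmQLFTest), each comparison in a fit of its own 6 libraries, with Benjamini-Hochberg adjustment over all genes tested. Calls needed an adjusted p under 0.05 and a log2 fold change over 0.585. The test was tried on simulated data before use. With 3 mice against 3, an exact permutation test cannot go below p = 0.1, so none was used. Plotted CPM use TMM over all 12 libraries. Alternatives were DESeq2 1.42.0, DESeq2 size factors and total counts in edgeR, no filter and a minimum of 10 counts in every library, 1 fit of all 12 libraries, limma 3.58.1 on log2(FPKM + 0.1), a replicate block, and leaving out each mouse. Over all genes, counts of mice of a group differed by more than counting error for every pair. For single members of low count or small spread, counting error can be as large as the spread between mice. Depth limits Cd200r3 and Fcer1a most.

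The replicate numbers were checked for pairing by the correlation of deviations from the group means over 15310 genes. It was 0.426, 0.123 and 0.107 for QJSB and model, where the numbers were taken to pair the mice in the replicate block. The 0.426 belongs to replicate 1, which had the low late neutrophil level in both groups. For leucogen and QJSB it was 0.181, 0.134 and 0.0782, and for leucogen and model 0.106 in replicate 1. All other values were below 0.1. The pairing comes from the data and not from the labels, and the main tests do not use it.

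The members and the lists (other basophil and mast cell genes, histamine, IgE signalling, CD200 family, and markers of late neutrophils, promyelocytes, eosinophils, stem and progenitor cells, megakaryocytes, erythroid cells, B cells and macrophages) were chosen with earlier results of these data known. Named were all 7 members and, in the lists and comparisons described gene by gene, up to 4 called genes with the largest change. Genes at or near 0 that show whether a product was made were also named. Called genes of other lists and comparisons are not all named. Slc18a2, Fcer1g, Gata2, Cd200r1 and the fifth basophil gene called higher were named after their values were seen. Likeness is Pearson's r of log2 CPM (prior count 2) among genes with a mean of at least 1 CPM, with the 5 most alike named. Promoter sequences come from RefSeq. A gene of the IgE signalling list is not reported here, and its list was counted without it.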

Additional observations from a re-analysis of the deposited data

Results flagged for a closer look

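Fcer1a differed between the treatments. Both were given on the same cyclophosphamide, and in leucogen against QJSB its log2 fold change was 1.61 (edgeR, adjusted p = 0.0429), with all 3 leucogen mice above all 3 QJSB mice. The counts behind it were 22, 31 and 28 in leucogen and 20, 15 and 4 in QJSB. Fcer1a passed the filter on low counts only with leucogen libraries included, so this call leans toward a difference. The call was lost in 7 of the alternatives tried.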

How the results depend on the processing

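The fall of Hdc, Mcpt8 and Prss34 in model against normal and the rise of Hdc in leucogen against model kept direction and call under every alternative in which they could be tested. The count of members called moved as follows. In leucogen against model it was 1 with at least 10 counts in every library, and in QJSB against normal 2 with that filter and 2 without a filter. In leucogen against normal it was 3 with all 12 libraries in 1 fit, with Cpa3 and Fcer1a lost. In leucogen against QJSB it was 0 with total counts, 0 with the 10-count filter, 2 with DESeq2, 2 with all 12 libraries in 1 fit and 0 with the replicate block, and from 0 to 3 with 1 mouse left out. Some members have too few counts for the 10-count filter, and otherwise the cause was not tested.

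The replicate block left Hdc in QJSB against model at 0.87 (adjusted p = 0.196) and changed no call there. In model against normal 5 members were called under it, with Cpa3 lost (adjusted p = 0.0824). That gene's adjusted p was 0.0673 with total counts, 0.10 with no filter, 0.0722 with all 12 libraries in 1 fit and 0.0505 with limma. Cd200r3 in leucogen against model had an adjusted p of 0.0741 with limma.

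Reversed signs were found for log2 fold changes that were not called. Ms4a2 in model against normal was 0.0192 with total counts, 0.0627 with limma and from -0.57 to 0.27 with 1 mouse left out. In leucogen against model it was 0.0090 under the replicate block and from -0.33 to 0.47 with 1 mouse left out, and in leucogen against normal from -0.52 to 0.22. Cpa3 in leucogen against model was -0.0090 with total counts and from -0.19 to 0.56 with 1 mouse left out. Prss34 ran from -0.58 to 0.19 in leucogen against model, from -0.29 to 1.29 in QJSB against model and from -1.45 to 0.21 in leucogen against QJSB, and Mcpt8 from -0.11 to 0.76 in QJSB against model. The cause was not tested, and the reversals in QJSB came with QJSB 1 left out.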
